A study of Mus musculus with 26 samples.

Results

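T cells bearing CD44 were compared with T cells lacking it, both taken by flow cytometry out of Peyer's patches. All mice were C57Bl/6 and ate a conventional diet. The comparison took every library whose cell type label is CD44+ T cells (n = 7) or CD44- T cells (n = 7), 14 of the 26 libraries in the series. The other 12 hold CD4+ T cells, from mice given either a conventional or an elemental diet, and the series as a whole asks how food antigen affects gene expression in T cells of this tissue. The CD44+ and CD44- groups share strain, tissue, diet, an RNA input of 1 ng and a low-input library kit, and differ in the CD44 gate. The labels do not say whether the gate included CD4, at what fluorescence CD44 was divided, or whether replicates came from separate animals. The p-values below therefore measure the spread between these libraries, part of which may be technical.

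CD44 is a surface receptor for the matrix polysaccharide hyaluronan. Naive T cells carry little of it, and T cells that have met antigen keep a high level as effector or memory cells. Peyer's patches are the gut's own lymphoid organs, with standing germinal centres in which follicular helper T cells help B cells produce IgA. Naive cells enter them from the blood through high endothelial venules, guided by CCR7, and leave along a gradient of sphingosine 1-phosphate. Many antigen-experienced cells, though not all, lose this recirculation program and gain helper, regulatory or cytotoxic ones.

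Each CD44+ library held 7180390 to 9991782 exon reads and each CD44- library 7933600 to 13378353, a difference of exact two-sided permutation p = 0.0629. Introns held 18.8% to 27.1% of gene reads in the CD44+ group and 7.95% to 25.7% in the CD44- group (exact permutation p = 0.353), with CD44- replicate 2 lowest. Adjusted over these 2 measures, the p-values were 0.126 and 0.353 (exact permutation test). Single genes varied widely within a group: 264 of the 8618 genes tested were at 0 to 2 reads in one CD44+ library and above 50 CPM (read counts scaled to library size) in another. The same held for 191 genes in CD44- libraries, and for 0 and 4 of 12320 genes in the CD4+ libraries of the 2 diets, which were made from more RNA. The biological coefficient of variation was 0.99 in the CD44 libraries and 0.30 in the CD4+ libraries. On the first principal component, with 18.8% of the variance, all CD44+ libraries lay apart from all CD44- libraries, and CD44- replicates 6, 7 and 8 lay nearest to the CD44+ group.

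The sort marker itself was checked first. Cd44 transcripts ran from 86.6 to 353 CPM (median 117) in CD44+ libraries and from 46.5 to 135 CPM (median 66.5) in CD44- libraries. The ranges overlapped, all 7 CD44+ libraries lay above the CD44- mean, and the log2 fold change of 0.94 ± 0.40 (SE) had an adjusted p of 0.296 in edgeR's quasi-likelihood test. The direction is that of the labels, but the transcript did not pass the test. Both groups were rich in T cell transcripts: Cd3e, a chain of the CD3 complex, ran from 1051 to 2778 CPM in CD44+ libraries and from 572 to 1918 CPM in CD44- libraries. Trac, the constant region of the T cell receptor alpha chain, ran from 1183 to 2246 and from 1354 to 2465 CPM. Cd4 was at 12 to 67.7 CPM (median 27.9) in CD44+ cells and 37.7 to 470 CPM (median 88.8) in CD44- cells, with a log2 fold change of -2.11 ± 0.58 and an adjusted p of 0.0887. Cd8a reached 69.6 and 78.1 CPM and was at 0 CPM in at least 1 library of each group, and Cd8b1 had medians of 68.6 and 28.8 CPM (adjusted p = 0.966 and 0.676). CD8 transcripts were thus present in both groups.

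Of 8618 genes tested, 79 (0.917%) passed an adjusted p of 0.05 in edgeR's quasi-likelihood test. CD44+ libraries were higher in 35 of them (0.406%) and lower in 44 (0.511%). Among all genes tested, 38 (0.441%) lay higher and 31 (0.360%) lower in CD44+ cells with no overlap in CPM between the groups, and 19 and 20 of these also passed the test. At an unadjusted p under 0.05 there were 521 higher and 652 lower genes, DESeq2 called 461 genes and limma-voom 105. In such bulk libraries, fewer cells of a type and less RNA per cell cannot be told apart. The count moved with single libraries: it was 46, 40, 45 and 51 without CD44+ replicate 1, 5, 6 or 7, and 46 and 42 without CD44- replicate 1 or 4. None of the 79 changed sign in any of these fits.

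**Figure D1:**
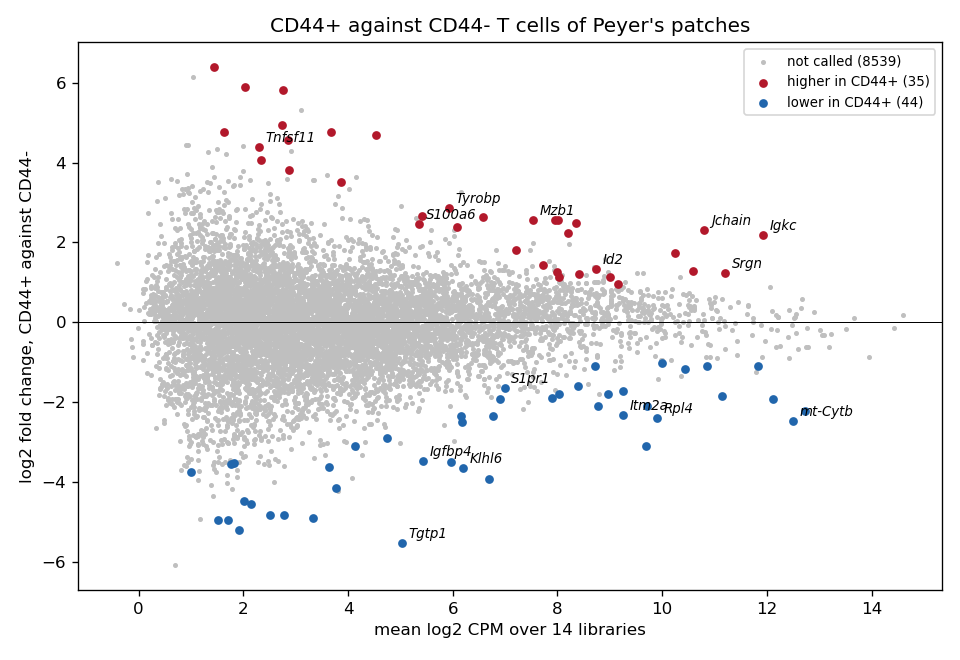
Log2 fold change (CD44+ against CD44-) against mean log2 CPM over the 14 libraries, 1 point per gene of 8618 tested. Red points are the 35 genes called higher and blue points the 44 called lower in CD44+ libraries, and grey points did not pass the test. The called genes at high CPM include Jchain and Igkc above 0 and mt-Cytb and Rpl4 below it.

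Part of the naive and recirculating program fell in the CD44+ libraries. Of 19 such genes tested, 3 passed the test, all lower (Igfbp4, Lef1 and S1pr1), and 18 of the 19 had a log2 fold change below 0. The median of the list was -1.26, against 0.02 over all genes tested. DESeq2 called 6 of the 19 and limma-voom 3, all lower. Over all 8618 genes tested, edgeR called 44 lower, DESeq2 256 and limma-voom 59.

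S1pr1 (chr3:115710433-115715072 in GRCm38), the sphingosine 1-phosphate receptor needed for exit from lymphoid tissue, was at 42.1, 89.0 and 98.9 CPM as the lowest, median and highest of the CD44+ libraries, and at 121, 178 and 425 CPM in the CD44- libraries. Every CD44+ library lay below every CD44- library, and the log2 fold change was -1.65 ± 0.37 (adjusted p = 0.0387). Lef1 (chr3:131110471-131224356), a transcription factor of the Wnt pathway that is high in naive T cells, was at 33.8, 165 and 302 CPM in CD44+ libraries and at 350, 556 and 694 CPM in CD44- libraries. The groups were again separate, with a log2 fold change of -1.79 ± 0.39 (adjusted p = 0.0326). Igfbp4 (chr11:99041244-99054392), a binding protein of insulin-like growth factors that is a transcript of naive T cells, was at 2.94, 11.8 and 55.4 CPM against 112, 191 and 236 CPM. It changed by -3.48 ± 0.58 (adjusted p = 0.00711).

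Igfbp4 passed the test in each of the 14 fits that left out 1 library. S1pr1 lost its call in 10 of them and Lef1 in 9, with adjusted p up to 0.0803 and 0.0726. Among the members that did not pass, Dapl1, a gene of early naive-like lymphocytes chosen for mention after its values were seen, was at 0, 0.121 and 25.8 CPM in CD44+ libraries. It was at 71.6, 137 and 268 CPM in CD44- libraries, so the groups did not overlap (log2 fold change -4.23 ± 1.21, adjusted p = 0.104). Ccr7, the chemokine receptor that guides naive cells into the T cell zone, had medians of 82.2 and 348 CPM with overlapping ranges (-2.17 ± 0.64, adjusted p = 0.110). Il7r, the receptor chain for the survival cytokine interleukin-7, had medians of 51.9 and 193 CPM (-1.56 ± 0.47, adjusted p = 0.118). The chromatin organizer Satb1 was at -1.26 ± 0.49 and Klf2, which drives S1pr1 expression, at -0.79 ± 0.64 (adjusted p = 0.253 and 0.661). Bcl2, which keeps resting lymphocytes alive, was at -1.07 ± 0.45 (adjusted p = 0.296).

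**Figure D2:**
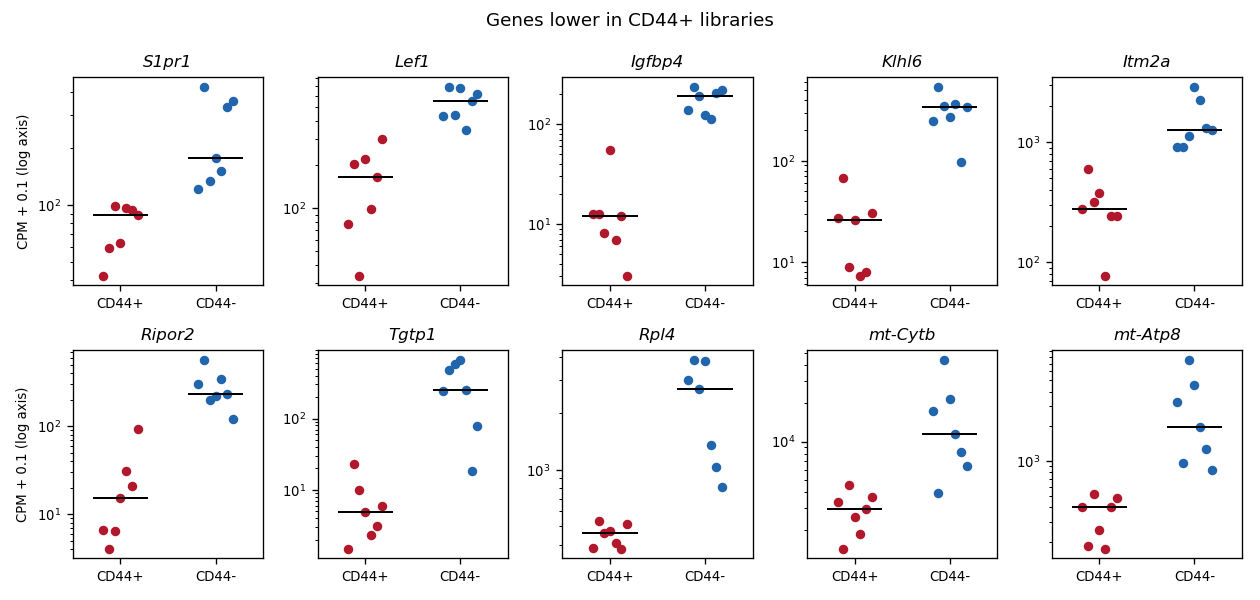
CPM + 0.1 on a log axis in each CD44+ (red) and CD44- (blue) library for 10 genes that were called lower in CD44+ cells, with a line at each group's median. S1pr1, Lef1, Igfbp4, Klhl6, Itm2a, Ripor2, Rpl4 and mt-Atp8 show no overlap between the groups, while Tgtp1 and mt-Cytb overlap.

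Genes outside that list fell too. Klhl6 (chr16:19946499-19983037), an adaptor of a ubiquitin ligase known from lymphocytes, was at 7.17, 26.0 and 67.0 CPM in CD44+ libraries and at 98.0, 342 and 540 CPM in CD44- libraries. Ripor2 (chr13:24582189-24733816), an inhibitor of the small GTPase RhoA in resting T cells, was at 3.95, 15.3 and 92.4 CPM against 121, 231 and 571 CPM. Itm2a (chrX:107397099-107403376), a membrane protein induced during thymocyte selection, was at 76.8, 278 and 595 CPM against 911, 1270 and 2905 CPM. None of these 3 genes overlapped between the groups. Their log2 fold changes were -3.66 ± 0.54, -3.50 ± 0.64 and -2.33 ± 0.38 (adjusted p = 0.00389, 0.0121 and 0.00587), and all 3 calls held in each fit that left out 1 library. With total gene reads, which add introns to exons, the changes were -2.73 for Klhl6, -1.63 for Ripor2 and -2.39 for Itm2a, and all 3 genes again passed. Dgka, the diacylglycerol kinase that dampens T cell receptor signals, fell by 3.10 ± 0.68 on the log2 scale, from a CD44- median of 66.2 CPM to 4.85 CPM (adjusted p = 0.0340). It was the only called gene among 18 of the co-inhibitory and anergy list, whose median was 0.27. Arl4c, a small GTPase of membrane traffic and the cytoskeleton, fell by 2.89 ± 0.61 with no overlap (adjusted p = 0.0297). Dgka and Arl4c lost their calls in 7 and 8 of the 14 fits without 1 library, with adjusted p up to 0.0710 and 0.0650. With total gene reads Dgka was at -1.22 and no longer passed (adjusted p = 0.0605).

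Il2rg, the common gamma chain shared by the receptors for interleukins 2, 4, 7, 15 and 21, was at 926 to 1726 CPM (median 1316) in CD44+ libraries and at 1902 to 4203 CPM (median 2255) in CD44- libraries. The ranges did not meet, and the log2 fold change was -1.10 ± 0.24 (adjusted p = 0.0327, lost in 7 of the 14 fits without 1 library). It was the only called gene of 19 cytokine receptor chains, 15 of which were below 0 (median -0.55). No gene of the T cell receptor complex and its proximal signalling passed edgeR's test among 22 tested. Their median was -0.45, with 1 higher and 6 lower by an unadjusted p under 0.05, and DESeq2 called 2 lower, limma-voom 0. Further genes called lower were picked for mention after their values were seen. They were the transcription factors Ets1 (-2.09 ± 0.48, adjusted p = 0.0409) and Klf13 (-2.35 ± 0.53, adjusted p = 0.0391), the lymphocyte GTPase Gimap6 (-1.03 ± 0.24, adjusted p = 0.0476) and the surface proteins Ms4a4b and Fxyd5 (-1.16 ± 0.25 and -1.08 ± 0.25, adjusted p = 0.0317 and 0.0423). Gimap6 was the only one of 8 GIMAP genes to pass. Of the 14 fits without 1 library, Ets1 and Fxyd5 lost their calls in 11, Klf13 and Gimap6 in 10 and Ms4a4b in 7 (adjusted p up to 0.103). With total gene reads Ets1 was at -0.91 and Gimap6 at -0.43, and neither passed (adjusted p = 0.221 and 0.200).

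The largest decrease among the named genes was in Tgtp1, an interferon-inducible GTPase that acts against intracellular pathogens. It was at 1.39, 4.84 and 22.6 CPM in CD44+ libraries and at 18.2, 251 and 669 CPM in CD44- libraries. The highest CD44+ library lay above the lowest CD44- library, and the log2 fold change was -5.53 ± 0.80 (adjusted p = 0.00389). Tgtp2, its near-identical neighbour, was at 98.4, 120 and 268 CPM against 104, 566 and 1005 CPM (-1.90 ± 0.45, adjusted p = 0.0476). With reads placed at a single site only, neither gene had enough reads to be tested, so the division of reads between the 2 copies is uncertain. Tgtp1 passed in each fit that left out 1 library, while Tgtp2 lost its call in 11 of 14. Ifit1bl1, of the interferon-induced tetratricopeptide family, was at 0.140, 0.922 and 9.25 CPM against 0.628, 48.9 and 111 CPM (-4.83 ± 1.04, adjusted p = 0.0324). Pydc3, a pyrin domain gene of the interferon-inducible Ifi200 cluster, had medians of 2.1 and 56.9 CPM (-3.62 ± 0.85, adjusted p = 0.0476). Ifit1bl1 lost its call in 10 of the 14 fits without 1 library and Pydc3 in 12 (up to 0.0650 and 0.0969), and with total gene reads Ifit1bl1 was at -4.02 (adjusted p = 0.108). Tgtp2, Ifit1bl1 and Pydc3 were chosen after their values were seen.

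Interferon-stimulated genes are switched on through a short promoter motif, the interferon-stimulated response element. The 250 bases before the RefSeq start site of Tgtp1, Tgtp2 and Ifit1bl1 (GRCm38.p6) are printed because each holds 1 match to its core, GAAANNGAAA, searched on both strands, and all 3 genes were called lower. The capitals mark the match, which begins 77, 70 and 104 bases before the start site, and Ifit1bl1 carries it on the opposite strand. The intervals are chr11:48992247-48992496, chr11:49064213-49064462 and chr19:34601969-34602218, all on the minus strand.
Tgtp1: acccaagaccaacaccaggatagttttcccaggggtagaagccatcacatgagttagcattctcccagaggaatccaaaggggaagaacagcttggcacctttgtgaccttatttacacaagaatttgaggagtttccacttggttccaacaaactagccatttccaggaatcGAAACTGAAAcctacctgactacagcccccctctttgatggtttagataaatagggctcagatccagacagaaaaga
Tgtp2: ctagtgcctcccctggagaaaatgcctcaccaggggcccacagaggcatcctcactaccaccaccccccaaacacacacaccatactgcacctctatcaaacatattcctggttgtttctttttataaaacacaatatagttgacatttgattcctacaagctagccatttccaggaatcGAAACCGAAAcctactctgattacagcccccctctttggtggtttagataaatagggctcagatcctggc
Ifit1bl1: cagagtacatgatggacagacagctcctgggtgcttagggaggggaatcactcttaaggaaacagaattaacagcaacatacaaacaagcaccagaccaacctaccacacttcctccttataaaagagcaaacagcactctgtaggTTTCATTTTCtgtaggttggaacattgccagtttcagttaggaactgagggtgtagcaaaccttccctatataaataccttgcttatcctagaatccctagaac
The motif stood in 821 (3.04%) of 27025 RefSeq promoter windows of the same 250 bases. It was in 2.95% of the 6600 windows of tested genes, in 5 of 27 windows of genes called lower (18.5%, with Rpl4 and Rpl5 besides these 3) and in 1 of 16 of genes called higher (6.25%). These windows cover 43 of the 79 called genes. In the interferon-stimulated list, 11 of 17 windows held it (64.7%). A match is a description of the letters and was not tested as a site. In the whole interferon-stimulated list, 1 of 22 genes passed (Tgtp1), the median was -0.45, and 6 were lower and 0 higher at an unadjusted p under 0.05. The antiviral modifier Isg15 had medians of 71.0 and 55.1 CPM (0.38 ± 0.48, adjusted p = 0.806).

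A group of abundant translation genes was lower in CD44+ cells. Rpl4 (chr9:64173375-64178666), a protein of the large ribosomal subunit, was at 379, 464 and 531 CPM in CD44+ libraries and at 814, 2706 and 3869 CPM in CD44- libraries. Eef1a1 (chr9:78478449-78489151), the elongation factor that brings aminoacyl-tRNA to the ribosome, was at 1947, 2273 and 3105 CPM against 3115, 10420 and 15640 CPM. Neither gene overlapped between the groups, and the CD44+ values were close to one another while the CD44- values were not. CD44- replicates 1, 2, 4 and 5 held 2706 to 3869 CPM of Rpl4, and CD44- replicates 6, 7 and 8 held 1356, 1042 and 814 CPM. The log2 fold changes were -2.40 ± 0.33 for Rpl4 and -1.93 ± 0.29 for Eef1a1 (adjusted p = 0.00389 for both), and both passed in each of the 30 alternative fits. Rpl5, Rpl3, the initiation factor subunit Eif3e, the nucleolar chaperone Npm1 and the asparaginyl-tRNA synthetase Nars were called lower too. Their log2 fold changes were -1.85 ± 0.33, -1.09 ± 0.26, -1.73 ± 0.28, -1.78 ± 0.32 and -1.93 ± 0.36, with adjusted p from 0.00587 to 0.0476. Rpl3 lost its call in 10 of the 14 fits without 1 library and with DESeq2 (adjusted p up to 0.101 and 0.0616), while the other 4 held theirs in every fit without 1 library. With replicate number and intron share both in the fit, Rpl5, Eif3e, Npm1 and Nars lost their calls too. These genes were picked after their values were seen. In the whole lists, 3 of 81 cytosolic ribosomal protein genes passed, all lower, with a median of -0.03, and 2 of 61 translation factors passed, both lower, with a median of -0.47. By an unadjusted p under 0.05, 14 ribosomal protein genes were lower and 2 higher, and 11 translation factors were lower and 2 higher. Of all 8618 genes tested, 652 were lower and 521 higher at that p, and edgeR called 44 lower. Ribosomal protein genes and Eef1a1 have many processed copies in the genome, among which reads can be divided.

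Some transcripts of the mitochondrial genome were lower as well. Of 13 protein-coding mitochondrial genes, 3 passed, all lower, 12 had a log2 fold change below 0, and the median was -1.13. The cytochrome b gene mt-Cytb was at 1433, 2944 and 4541 CPM in CD44+ libraries and at 3909, 11410 and 44080 CPM in CD44- libraries (-2.47 ± 0.44, adjusted p = 0.00972). The ATP synthase genes mt-Atp8 and mt-Atp6, which overlap in sequence, changed by -3.08 ± 0.47 and -2.21 ± 0.39 (adjusted p = 0.00389 and 0.00972) with no overlap between the groups. The decrease was not even along the genome: mt-Co3, between mt-Atp6 and mt-Nd3, was at -0.15 ± 0.30 and mt-Nd3 at 0.40 ± 0.41 (adjusted p = 0.890 and 0.761). The summed level of the 13 genes was 36000 to 79820 CPM in CD44+ libraries and 23900 to 200100 CPM in CD44- libraries, with CD44- replicate 4 highest in mt-Cytb and CD44- replicate 2 lowest. The part of RNA quality or handling in this result was not tested. Hspa8, a constitutive chaperone, was the only called gene of 16 in a list of handling stress (-2.09 ± 0.42, adjusted p = 0.0219). Its call was lost without CD44+ replicate 1, 5, 6 or 8 or CD44- replicate 4 (adjusted p up to 0.0552). The median of that list was 0.38, and 12 of the 16 were above 0. Yme1l1, a protease of the mitochondrial inner membrane, fell by 2.5 ± 0.51 with no overlap (adjusted p = 0.0259, lost without CD44+ replicate 1 or 5 or CD44- replicate 1 or 4, up to 0.0609).

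Few genes of antigen-experienced cells passed the test, and those that did rose. Id2 (chr12:25093799-25097140), an inhibitor of E proteins that supports effector differentiation, was at 510, 628 and 994 CPM in CD44+ libraries and at 150, 229 and 495 CPM in CD44- libraries. The ranges did not overlap, and the log2 fold change was 1.33 ± 0.30 (adjusted p = 0.0378). It was the only called gene among 14 effector and memory regulators, of which 11 were above 0 (median 0.49). S100a6 (chr3:90612882-90624181), a calcium-binding protein of the S100 group, was at 42.5, 113 and 194 CPM against 7.33, 15.6 and 44.0 CPM. Its ranges overlapped slightly, with a log2 fold change of 2.47 ± 0.52 (adjusted p = 0.0297). It was the only called gene of 20 for adhesion and cytoskeleton of experienced cells, 16 of which were above 0 (median 0.38). Id2 lost its call in 9 of the 14 fits without 1 library (adjusted p up to 0.0830), and S100a6 without CD44+ replicate 2, 7 or 8 or CD44- replicate 1 or 4 (up to 0.0710).

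Srgn (chr10:62493833-62527451), the proteoglycan that packs secretory granules, was at 3096, 3507 and 5160 CPM in CD44+ libraries and at 700, 1721 and 1807 CPM in CD44- libraries. Its groups were separate, and the difference of 1.23 ± 0.22 (adjusted p = 0.00972) held in each fit without 1 library. Tnfsf11, which encodes RANKL, the ligand that induces M cells over Peyer's patches, was at 0.676, 34.8 and 64.4 CPM in CD44+ libraries and at 0.126, 1.02 and 4.88 CPM in CD44- libraries. One CD44+ library lay within the CD44- range, the log2 fold change was 4.39 ± 0.98 (adjusted p = 0.0378), and the call was lost in 11 of the 14 fits without 1 library (up to 0.0833) and with total gene reads (3.30, adjusted p = 0.0729). It was the only call among 14 co-stimulatory receptors and ligands of the TNF families (median 0.47). Tnfrsf4, or OX40, was at 540, 1235 and 1364 CPM against 23.7, 365 and 558 CPM (1.58 ± 0.43, adjusted p = 0.0911), and DESeq2 called it. Bcl2a1a, a survival gene with several near-identical copies among which reads are uncertain, was called higher with no overlap (4.56 ± 0.86, adjusted p = 0.0131). Srgn, Tnfrsf4 and Bcl2a1a were chosen after their values were seen. The BCL2 family and caspase list, which does not include Bcl2a1a, had 0 of 15 genes called by edgeR, DESeq2 or limma-voom. In that list, 1 gene was lower at an unadjusted p under 0.05.

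**Figure D3:**
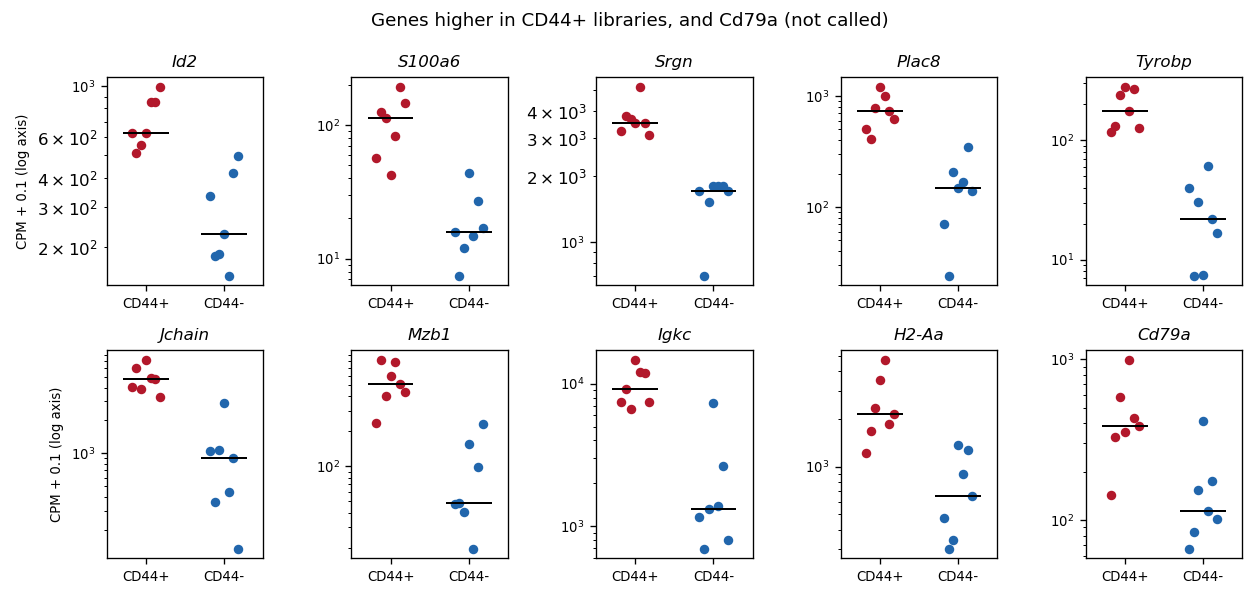
CPM + 0.1 on a log axis in each CD44+ (red) and CD44- (blue) library, with a line at each group's median, for 9 genes called higher in CD44+ cells and for Cd79a, which did not pass the test. Id2, Srgn, Plac8, Tyrobp, Jchain and Mzb1 show no overlap between the groups.

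Another group of genes that rose belongs to the antibody-producing lineage. Jchain (chr5:88519809-88527891), the joining chain of polymeric IgA and IgM, was at 3264, 4738 and 7191 CPM in CD44+ libraries and at 134, 915 and 2875 CPM in CD44- libraries. Mzb1 (chr18:35647266-35649367), an endoplasmic reticulum protein of plasma cells and marginal zone B cells, was at 234, 505 and 823 CPM against 19.4, 48.5 and 229 CPM. For both genes all CD44+ libraries lay above all CD44- libraries. The log2 fold changes were 2.31 ± 0.47 and 2.57 ± 0.48 (adjusted p = 0.0219 and 0.0130). Mzb1 passed in each fit without 1 library, and Jchain lost its call without CD44+ replicate 5 or CD44- replicate 4 (adjusted p up to 0.0537). They were 2 of 6 plasma cell markers tested, all 6 of which were above 0 (median 2.44). By an unadjusted p under 0.05, 5 of the 6 were higher and 0 lower, beside 521 and 652 of all 8618 genes tested. The edgeR test called 35 of all genes tested higher.

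Immunoglobulin genes were among those that rose. Of 84 tested, 10 were called higher and 0 lower, and no T cell receptor gene was called either way by edgeR. Igkc (chr6:70726435-70726966), the kappa constant region, was at 6680, 9150 and 14740 CPM in CD44+ libraries and at 694, 1311 and 7353 CPM in CD44- libraries, and 1 CD44- library lay within the CD44+ range (2.18 ± 0.45, adjusted p = 0.0259). Its call was lost without CD44+ replicate 5 or 6 or CD44- replicate 1 or 4 (up to 0.0609). Iglc1, a lambda constant gene, was at 327 to 1187 CPM against 29.2 to 285 CPM with no overlap (2.55 ± 0.45, adjusted p = 0.00972), and passed in every fit that tested it. Of 66 kappa variable segments tested, 7 were called higher, 65 lay above 0 and the median was 2.52. DESeq2 called 33 of them higher. Over all 8618 genes tested, edgeR called 35 (0.406%) higher and DESeq2 205. The 100 segments in the tables summed to 3987 to 8669 CPM in CD44+ libraries and to 431 to 4471 CPM in CD44- libraries. Single segments differed between libraries of 1 group: Igkv5-43 ran from 3.13 to 453 CPM and Igkv12-46 from 9.70 to 1180 CPM among CD44+ libraries. Variable segments resemble one another, so reads may be divided among them. Igkc, Iglc1 and the segments were chosen after their values were seen. For most of these genes the deposited exon length is 0, so total gene reads stand for them. With such genes left out, 3 kappa variable segments were still tested. T cell receptor alpha and beta variable segments had a median of -0.10 over 91 tested, with 0 called by edgeR, 4 lower and 0 higher at an unadjusted p under 0.05, 2 lower by DESeq2 and 1 lower by limma-voom.

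The B cell marker list held no called gene. None of 12 B cell markers passed edgeR's test, 10 were above 0 and the median was 1.09. By an unadjusted p under 0.05, 5 were higher and 0 lower, beside 521 and 652 of all 8618 genes tested. DESeq2 called 2 higher and limma-voom 1, beside 205 and 46 called higher among all genes tested. Cd79a, a signalling chain of the B cell receptor, was at 142, 384 and 994 CPM in CD44+ libraries and at 66.0, 113 and 414 CPM in CD44- libraries (1.54 ± 0.44, adjusted p = 0.102). Vpreb3, an assembly factor of that receptor, was at 79.3, 162 and 276 CPM against 8.74, 32.4 and 85.4 CPM (2.16 ± 0.52, adjusted p = 0.0527). Ms4a1, which encodes CD20, had medians of 101 and 95.6 CPM (0.38 ± 0.64, adjusted p = 0.859). Tnfrsf13b, the receptor TACI (3.82 ± 0.87, adjusted p = 0.0388), and Cd180, a Toll-like receptor homolog (3.51 ± 0.83, adjusted p = 0.0493), have a known place in B cells and were called higher. Each lost its call in 10 of the 14 fits without 1 library, and with total gene reads Tnfrsf13b was at 1.2 (adjusted p = 0.701). They are examples and not a full set. Klhl6, a called gene known from lymphocytes, went the other way (-3.66, adjusted p = 0.00389). Of 9 genes of MHC class II presentation, H2-Aa passed and all 9 lay above 0 (median 1.51). H2-Aa, the alpha chain of I-A, was at 1222, 2140 and 4743 CPM against 302, 653 and 1360 CPM (1.73 ± 0.37, adjusted p = 0.0325, lost without CD44+ replicate 5 or 6 or CD44- replicate 1 or 4, up to 0.0761). Ssr4, a subunit of the translocon-associated complex of secretory cells, was the only call among 28 secretory pathway genes (1.22 ± 0.27, adjusted p = 0.0368, lost in 8 of the 14 fits without 1 library, up to 0.0776). Cd79a, Vpreb3, Ms4a1, Tnfrsf13b, Cd180, H2-Aa and Ssr4 were picked after their values were seen.

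The whole marker lists moved as follows beside these genes. The 8 plasma cell markers summed to 3758 to 7899 CPM in CD44+ libraries and to 390 to 3056 CPM in CD44- libraries, without overlap. Jchain alone was 3264 to 7191 and 134 to 2875 CPM of these sums. The 14 B cell markers summed to 3690 to 14810 and 2285 to 10090 CPM, with none at 0 in every library. By their medians, Cd79a, Vpreb3 and Ms4a1 were a small part of these sums, which rest largely on other members of the list. Markers of germinal centre B cells summed to 113 to 370 and 46.7 to 258 CPM, with 0 of 5 tested members called by edgeR, DESeq2 or limma-voom and 1 higher at an unadjusted p under 0.05. Both groups thus held transcripts of the B lineage. Their part in the results was not tested.

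Tyrobp, Plac8, Ly6d and Napsa also rose. Tyrobp (chr7:30413760-30417585), the adaptor DAP12 of activating receptors, was at 117, 176 and 280 CPM in CD44+ libraries and at 7.22, 21.9 and 60.3 CPM in CD44- libraries. The groups were separate, with a log2 fold change of 2.87 ± 0.51 (adjusted p = 0.00972) that passed in each fit without 1 library. Fcer1g, a related adaptor, was at 67.5 to 362 CPM against 4.56 to 52.7 CPM, also without overlap, and missed the threshold (2.09 ± 0.53, adjusted p = 0.0711). Plac8, Ly6d and Napsa, of which Plac8 is high in plasmacytoid dendritic cells, Ly6d marks lymphoid progenitors and Napsa is an aspartic protease, were called higher with no overlap. Their medians were 732, 973 and 134 CPM in CD44+ libraries and 148, 238 and 23.6 CPM in CD44- libraries. The log2 fold changes were 2.25 ± 0.43, 2.49 ± 0.49 and 2.65 ± 0.60 (adjusted p = 0.0150, 0.0194 and 0.0378), and Napsa lost its call in 9 of the 14 fits without 1 library. Siglech, a lectin of plasmacytoid dendritic cells chosen after its values were seen, was at 0.231, 44.9 and 98.2 CPM against 0, 0.118 and 11.3 CPM (4.75 ± 1.49, adjusted p = 0.135), and DESeq2 called it.

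Innate lymphoid, NK and gamma-delta T cell markers summed to 406 to 805 CPM in CD44+ libraries and to 85.0 to 384 CPM in CD44- libraries, with 1 of 6 called (Tyrobp, median 1.42) and the NK receptor gene Ncr1 at 0 in every CD44+ library. Myeloid and dendritic markers summed to 1308 to 1546 and 759 to 1582 CPM (0 of 13 called by edgeR or limma-voom, 2 higher at an unadjusted p under 0.05, 1 higher by DESeq2, median 0.32). Epithelial markers summed to 165 to 687 and 118 to 892 CPM, with Alpi, Fbp1 and Slc2a5 at 0 in every library (0 of 9 called by edgeR, DESeq2 or limma-voom and at an unadjusted p under 0.05). Stromal markers summed to 14.9 to 110 and 8.97 to 125 CPM and erythroid markers to 19.2 to 970 and 4.20 to 1228 CPM, with 0 of 3 and 0 of 4 called in the same 4 ways. The part of these cells in the results was not tested. Outside the lists, Gstt2, a glutathione S-transferase, Erg28, a scaffold of sterol synthesis, and Atp5g2, a subunit of the ATP synthase ring, were called higher with no overlap. They changed by 1.81 ± 0.32, 1.45 ± 0.28 and 1.25 ± 0.29 (adjusted p = 0.00972, 0.0143 and 0.0474), and Atp5g2 lost its call in 12 of the 14 fits without 1 library.

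Follicular helper genes lay more often above 0 than below, but none of 21 passed edgeR's test, and the list was not tested as a set. Of the 21, 14 lay above 0 and the median was 0.77. By an unadjusted p under 0.05, 6 were higher and 0 lower, beside 521 and 652 of all 8618 genes tested. DESeq2 called 2 higher and 1 lower, limma-voom 0. Bcl6, the defining transcription factor of these cells, was at 130, 159 and 249 CPM in CD44+ libraries and at 37.5, 81.9 and 115 CPM in CD44- libraries. Its ranges did not overlap, and the log2 fold change of 1.14 ± 0.35 had an adjusted p of 0.126. Maf, which drives interleukin-21 and interleukin-10 in these cells, was at 207, 387 and 516 CPM against 64.0, 184 and 255 CPM (1.13 ± 0.33, adjusted p = 0.109). Cxcr5, the receptor for entry into follicles, had medians of 77.0 and 40.4 CPM and a log2 fold change of -0.05 ± 0.75 (adjusted p = 0.985), and its sign changed with the setting. The receptor PD-1 gene Pdcd1 was at 0.13 ± 0.52 and the co-stimulator Icos at -0.04 ± 0.26 (adjusted p = 0.947 and 0.969). Il21, the cytokine of B cell help, had medians of 41.0 and 80.1 CPM (-0.76 ± 0.51, adjusted p = 0.583). Cxcr5, Pdcd1, Icos and Il21 transcripts were therefore present in the CD44- libraries at levels not told apart from those in the CD44+ libraries at this spread.

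**Figure D4:**
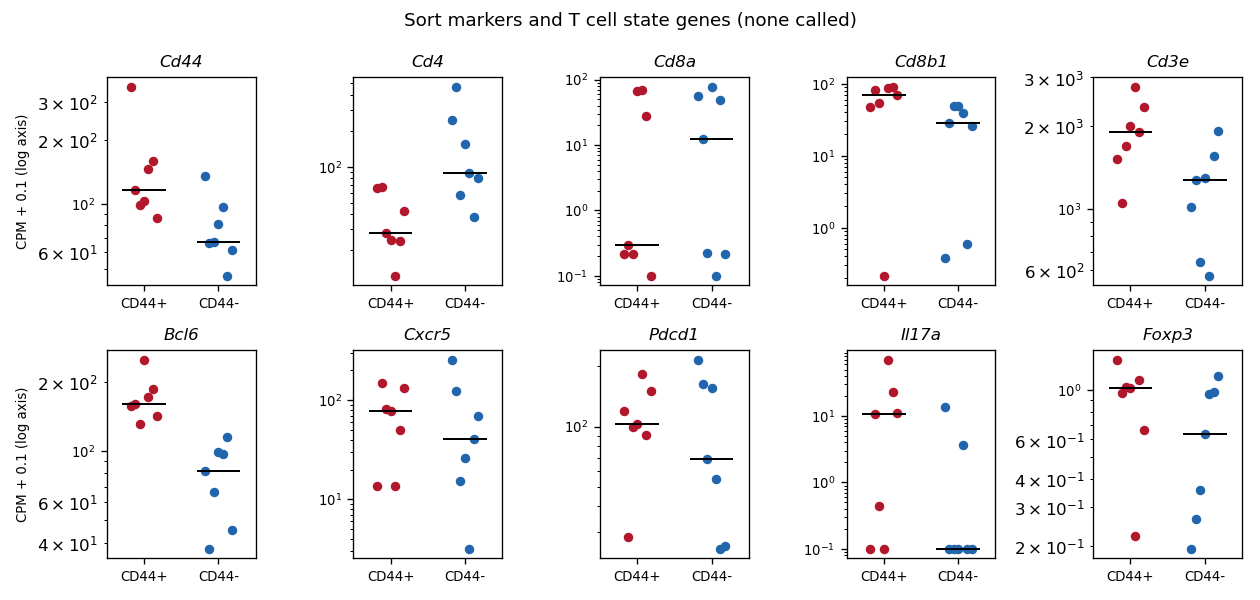
CPM + 0.1 on a log axis in each CD44+ (red) and CD44- (blue) library, with a line at each group's median, for sort markers and T cell state genes, none of which was called. Bcl6 shows no overlap, Cd44, Cxcr5 and Pdcd1 overlap, and Il17a and Foxp3 were dropped by the filter on low counts and not tested.

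Some defining genes of the other helper programs were dropped by the filter on low counts and so were not tested. Il17a, the signature cytokine gene of Th17 cells, had 0 to 581 reads in CD44+ libraries, 2 of them at 0 reads, and 0 to 145 reads in CD44- libraries, 5 of them at 0 reads. It was thus absent from some libraries and well covered in others of the same group. Tmem176a, an ion channel gene of the Th17 list, was higher without overlap at 72.5, 129 and 231 CPM against 2.09, 28.9 and 60.7 CPM (2.31 ± 0.60, adjusted p = 0.0738). Of 6 Th17 genes tested, 0 passed edgeR's test, 5 lay above 0 and the median was 1.45, with 2 higher at an unadjusted p under 0.05, 2 by DESeq2 and 1 by limma-voom.

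Foxp3, the factor that defines regulatory T cells, had 1 to 11 reads in CD44+ libraries and 1 to 9 reads in CD44- libraries, too few to be tested. Of 14 other regulatory T cell genes, 0 passed (median 0.48, 2 higher at an unadjusted p under 0.05, 1 higher by DESeq2, 0 by limma-voom). Ikzf2, which encodes Helios, had medians of 130 and 141 CPM, and Ctla4 of 124 and 102 CPM (adjusted p = 0.811 and 0.814). Tigit, an inhibitory receptor of regulatory and follicular helper cells, had medians of 519 and 376 CPM (0.62 ± 0.32, adjusted p = 0.416). Tbx21, the Th1 factor T-bet, had 2 to 6 and 0 to 7 reads, and Ifng had 1 to 16 and 0 to 390 reads. Neither passed the filter on low counts, although Ifng was not low in every library. The Th1 and cytotoxic list had 0 of 17 called (median -0.17, 3 higher at an unadjusted p under 0.05, 1 by DESeq2, 0 by limma-voom). Its median had the opposite sign with total gene reads (0.33) and with a replicate block (0.41). Gata3, the Th2 factor, was at -0.20 ± 0.81 and Prdm1, which encodes Blimp-1, at 0.58 ± 0.68 (adjusted p = 0.947 and 0.790).

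Cell cycle genes did not pass edgeR's test, though more of them lay above 0 than below. None of 35 was called by edgeR or limma-voom, 23 lay above 0 and the median was 0.58. By an unadjusted p under 0.05, 12 were higher and 1 lower, beside 521 and 652 of all 8618 genes tested. DESeq2 called 6 higher, beside 205 of all genes tested. Mki67, a protein of dividing cells, had medians of 7.14 and 2.42 CPM (1.25 ± 0.71, adjusted p = 0.470). Top2a, the topoisomerase of replicating chromosomes, ran from 4.96 to 42.4 and from 2.47 to 11.1 CPM (1.44 ± 0.68, adjusted p = 0.358). Glycolysis genes had a median of -0.21 over 15, cholesterol and fatty acid synthesis genes -0.04 over 20, and receptor-induced early genes -0.08 over 14. None of these 49 was called by edgeR, DESeq2 or limma-voom, and at an unadjusted p under 0.05 there were 0 higher and 2, 2 and 1 lower. Homing and positioning receptors had a median of 0.19 over 19, with S1pr1 as the only one called. The Ikaros family, glucocorticoid response, circadian clock and Th2 lists, with 5, 7, 7 and 3 genes tested, had 0 called by edgeR or limma-voom, and DESeq2 called 1 Th2 gene higher. Their medians were -0.32, 0.43, -1.77 and 0.22, and an unadjusted p under 0.05 picked 0, 2 lower, 1 lower and 1 higher. The clock genes went both ways, 3 above 0 and 4 below, and their median was -0.04 with total gene reads and -0.71 with a replicate block. That of the glucocorticoid list was 0.01 with total gene reads.

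**Figure D5:**
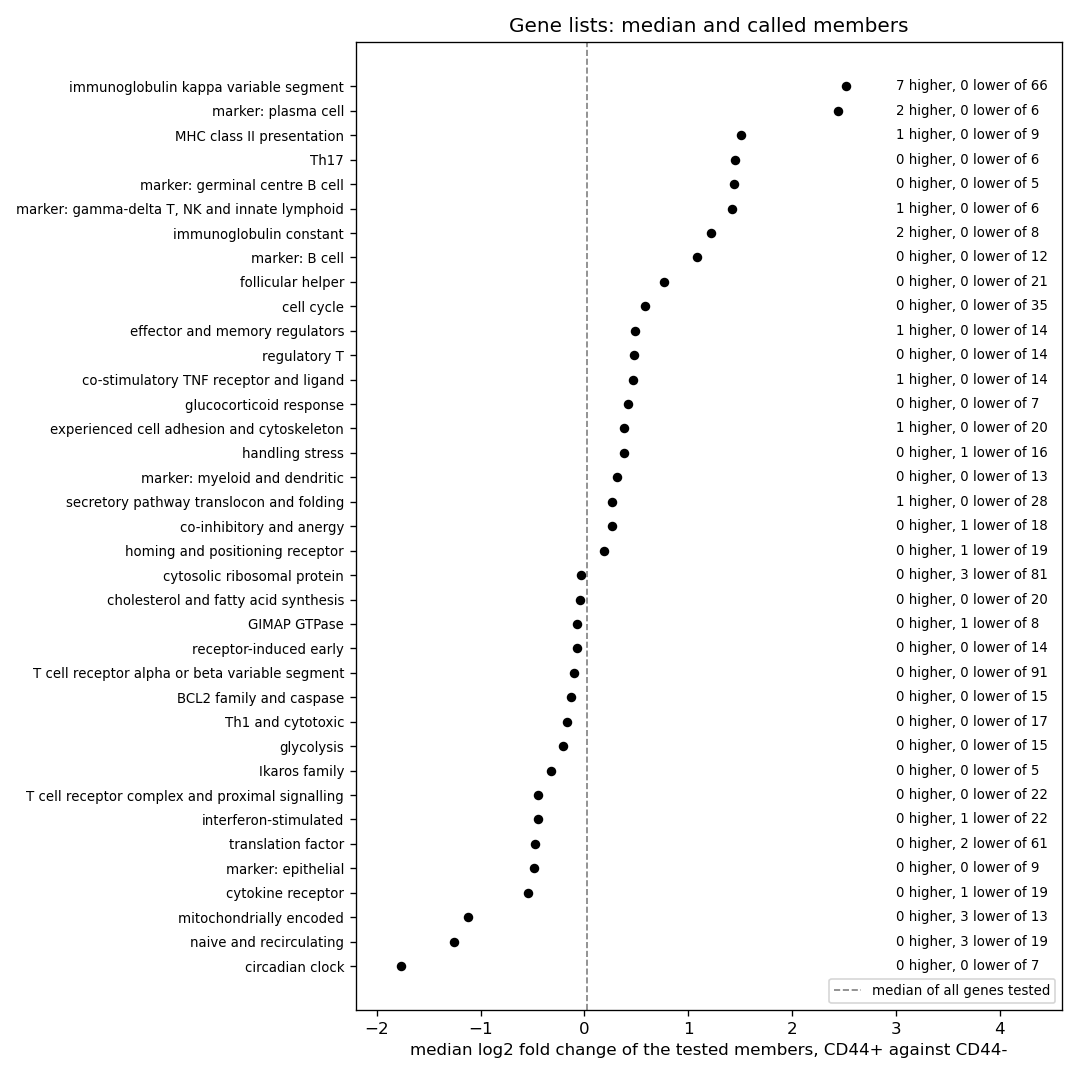
Median log2 fold change (CD44+ against CD44-) of the tested members of each gene list with at least 5 of them, 1 point per list, with the number called higher and lower at the right. The dashed line is the median of all genes tested, 0.02. Kappa variable segments (2.52) and plasma cell markers (2.44) lie farthest to the right, and naive genes (-1.26) and circadian clock genes (-1.77, or -0.04 with total gene reads, 0 of 7 called) to the left.

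The diet comparison in CD4+ cells shares no library with this one, so the called genes can be set beside it. All 79 were tested there, where 2118 of 12320 genes (17.2%) were called, 9.59% of those tested being higher and 7.61% lower on the elemental diet. Of the 79, 22 were called in both comparisons, which is 27.8% of the CD44 calls and 1.04% of the diet calls, 7 with the same sign and 15 with the opposite one. S1pr1, Igfbp4, Arl4c and Tgtp1, lower in CD44+ cells, were higher on the elemental diet, with log2 fold changes of 0.36 ± 0.09, 0.70 ± 0.13, 0.49 ± 0.15 and 0.60 ± 0.19. The whole naive and recirculating list had a median of -0.03 over 19 genes in the diet comparison, with 4 called higher and 1 lower. Jchain, Mzb1 and Igkc, higher in CD44+ cells, were lower on the elemental diet, at -1.40 ± 0.32, -1.45 ± 0.25 and -1.52 ± 0.23. Tyrobp, Plac8 and Id2 had the same sign in both, at 1.5 ± 0.23, 1.54 ± 0.33 and 0.33 ± 0.11 on the elemental diet. Cd44 itself was lower on the elemental diet (-0.59 ± 0.12, adjusted p = 0.00387). Igfbp4 and Mzb1 had adjusted p = 0.00219 and 0.00228 there, and the others named had adjusted p from 0.00103 to 0.0490 in edgeR's test.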

How the data were processed

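RNA of sorted cells was sequenced, and for each library the authors deposited whole-number counts of exon, intron and total gene reads for 25814 genes, per the file headers. Reads were counted on GRCm38, per the submitters' processing notes. For the aligner and counter, the name is not given in the sources used here. The exon column was analysed, or total gene reads for the 3759 genes with an exon length of 0. Libraries were grouped by their cell type labels.

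Genes kept by filterByExpr were scaled by TMM and tested two-sided between 7 CD44+ and 7 CD44- libraries with edgeR 4.0.16 (robust quasi-likelihood, R 4.3.3), and called at a Benjamini-Hochberg adjusted p under 0.05. Levels are CPM on TMM-scaled library sizes. The SE is the log2 fold change over the root of its F value. DESeq2 1.42.0, limma 3.58.1, other scalings, filters and counts, covariates and left-out libraries were alternatives.

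The text names up to 10 of the largest increases and of the largest decreases without overlap and with log2 CPM averaging 4 or more. Immunoglobulin genes such as Iglc1 stand outside this ranking, although the change of Iglc1 was larger than that of Jchain. The text also names a list of key genes, and up to 4 called genes per list and direction. Members and lists were chosen with earlier results of these data known. Lists were described by counts and medians, with no set test. Some genes under this rule and in the lists are not reported here, and list counts and medians leave them out. No pair of libraries was a duplicate.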

Additional observations from a re-analysis of the deposited data

Results flagged for a closer look

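In 184 sets of 7 values (the named genes in each group), 13 had a highest or lowest library that stood apart from the other 6. The measure was Dixon's criterion on log2 CPM, so the gaps in CPM below are not on its scale. Chance flags about 1 in 20 groups if values are normally distributed on the log scale. No explanation was weighed.

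In CD44+ libraries, Srgn was at 5160 CPM in replicate 6 against 3096 to 3805 CPM in the others. Cd44 was at 353 CPM in replicate 1 against 86.6 to 159 CPM. Cd8b1 was at 0.115 CPM (1 read) in replicate 5 against 48.1 to 91.0 CPM. Pdcd1 was at 28.2 CPM in replicate 2 against 90.8 to 182 CPM, and Ctla4 at 3.02 CPM in replicate 4 against 70.2 to 342 CPM.

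In CD44- libraries, replicate 2 was lowest for Tigit at 135 CPM (others 339 to 506 CPM), for Srgn at 700 CPM (others 1527 to 1807 CPM) and for Ssr4 at 101 CPM (others 195 to 297 CPM). Replicate 6 was lowest for Napsa at 0.737 CPM (others 11.8 to 34.8 CPM) and for Tnfrsf4 at 23.7 CPM (others 231 to 558 CPM). Replicate 7 was lowest for Ctla4 at 1.26 CPM (others 36.8 to 202 CPM) and for Ifit1bl1 at 0.628 CPM (5 reads, others 32.3 to 111 CPM). Siglech was at 11.3 CPM (121 reads) in replicate 1 against 0 to 0.127 CPM in the others.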

How the results depend on the processing

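The 79 genes called (35 higher, 44 lower) became 461 (205 and 256) with DESeq2, 38 (17 and 21) with the intron share as a covariate, 31 (9 and 22) against a minimum fold of 1.5, and 1888 (800 and 1088) with the spread shared over all 4 groups. Leaving out 1 library gave 40 to 103 (17 to 45 higher, 23 to 58 lower), and leaving out CD44- replicate 2 with CD44+ replicate 8, chosen after seeing the data, 36 (12 and 24). Leaving aside the lists chosen after values were seen (ribosomal proteins, translation factors, immunoglobulin and T cell receptor segments, GIMAP, secretory pathway and MHC class II), the called members of gene lists numbered 16 and became 45, 8, 7 and 111 in the first 4 of these, 8 to 20 without 1 library and 9 without both libraries. No call changed sign in 30 settings, 32 genes were called in each fit without 1 library and 11 in each setting that tested them.

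Same-numbered libraries showed little likeness: correlations of their deviations ran from -0.0355 to 0.113, and 1 of 14 libraries correlated best with its own number. Both groups carry the same replicate numbers. At this spread the correlations cannot decide whether same-numbered libraries share an animal. A replicate block gave 49 calls (22 higher, 27 lower), and the block with the intron share 19 (8 and 11) with 6 list members. Tyrobp, Mzb1, Srgn, Rpl5, Eif3e, Npm1 and Nars lost their calls with block and intron share, and Nars with the block alone. Jchain, Igkc, Id2, Lef1 and H2-Aa lost theirs with the intron share alone. Rpl4, Eef1a1, Klhl6, Itm2a, Igfbp4 and Ripor2 kept theirs in all these fits.

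Uncalled genes near 0 changed sign. Cxcr5 was at 0.10 with RLE scaling, 0.00 with upper quartile scaling, 0.10 with DESeq2, 0.13 with limma-voom, 0.65 with total gene reads, 0.01 with uniquely placed reads, 0.76 with the block, 0.12 with the intron share and 0.89 with both, and from -0.32 to 0.64 without 1 library. Icos was at 0.02 with RLE scaling and with DESeq2, 0.09 with block and intron share, and -0.13 to 0.10 without 1 library. Trac was at 0.01, 0.01 and 0.04 in the same 3 settings and -0.18 to 0.01 without 1 library. Gata3 was at 0.32 with total gene reads and 0.10 without CD44- replicate 2 and CD44+ replicate 8, Ms4a1 at -0.11 with the block and -0.72 with block and intron share. Without 1 library, Gata3 ran from -0.62 to 0.16, Cd8a from -0.83 to 0.25, Pdcd1 from -0.04 to 0.43 and Ikzf2 from -0.05 to 0.48. Medians of lists also crossed 0: glycolysis was at 0.15 and ribosomal proteins at 0.08 with the block, and Th2 at -0.08 with the intron share. The cause was not tested. The high spread (median SE 0.77, against 0.19 in the diet comparison) limits what these libraries can show.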
